A study of Mus musculus with 5 samples.

Results

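The 97 genes described here were well measured in mouse embryonic stem (ES) cells and again on Day7 of their turn into motor neurons, and were low on Day3 and Day4. They were selected on measured values: a gene was taken where 1 of its probes was at least 4-fold lower on both intermediate arrays, Day3 and Day4, than on both ES and Day7, and was well above background on ES and Day7. Symbols were assigned to probes through RefSeq transcript accessions only. Of 19897 symbols so assigned, 13862 had a probe well above background on both ES and Day7, and the 97 genes are 0.7% of these. That share is the selection itself, and nothing is read from it. A further 56 probes met the rule without a gene symbol and were left aside, 32 of them designed to a chromosome interval and 24 to other transcripts.

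The study followed male wild-type mouse ES cells as they were turned into spinal motor neurons with retinoic acid (RA) and activation of the Sonic hedgehog (Shh) pathway. The labels name RA and Shh from day 2 to day 5, and the methods of the study name SAG, a small-molecule agonist of that pathway. Total RNA of 5 samples was labelled with Cy3 and hybridised to Agilent 1-colour arrays, 1 array per time point. ES is the undifferentiated culture. Day2 is embryoid bodies, free-floating aggregates of ES cells, after 8 h of RA. By the labels Day3 had 1 day of RA, Day4 had 2 days and Day7 had 5 days. For Day7 that is longer than the span from day 2 to day 5, and both are given here as labelled. Since each time point has 1 array, no difference has a replicate check, and no test was made. Day7 was hybridised on a slide of its own and the other 4 shared one, so an effect of the slide on Day7 cannot be told apart from one of time.

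Neurons depend on proteins that few other cells make in quantity: voltage-gated channels, transmitter receptors and transporters, machinery of synaptic vesicles, and stabilisers of the axonal cytoskeleton. Outside neurons many of these genes are held down by the repressor REST, which binds the RE1 element. In culture, RA and Shh signalling carry ES cells through a dividing neural progenitor state, in which ES cell genes are turned off and most genes of the mature neuron are not yet on.

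All levels below are deposited log2 values, in which 0 is the 75th percentile of the array, and are read for 1 probe at a time between arrays, other than the sums over marker genes given further on. The median over the 97 genes was -1.87 on ES, -2.74 on Day2, -5.09 on Day3, -5.33 on Day4, then -0.72 on Day7. The margin, the lower of ES and Day7 minus the higher of Day3 and Day4, ran from 2.00 to 7.57 with a median of 2.51. It was 3 or more in 24 genes and between 2 and 2.5 in 48. In these bulk samples, fewer cells of a type and less RNA per cell cannot be told apart.

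Many of the low values are bounds. On Day3 54 of the 97 genes were not well above background, and on Day4 50. On both arrays 46 were dim and on 1 of them 12, while 39 were well above background on all 5 arrays. These counts, and each of the 97 genes called dim below, go by the chosen probe only. With each dim value set at the higher of its own level and the lowest level among probes well above background on that array, 66 genes still had a margin of 2 or more, 31 fell under 2 and 18 under 1, and the median was 2.20. Folds against a dim value are given below as "at least", computed that way. Every fold and bound holds for the deposited scale only (margins after other processing are given further on), and each is the lower of ES and Day7 over the higher of Day3 and Day4.

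**Figure D1:**
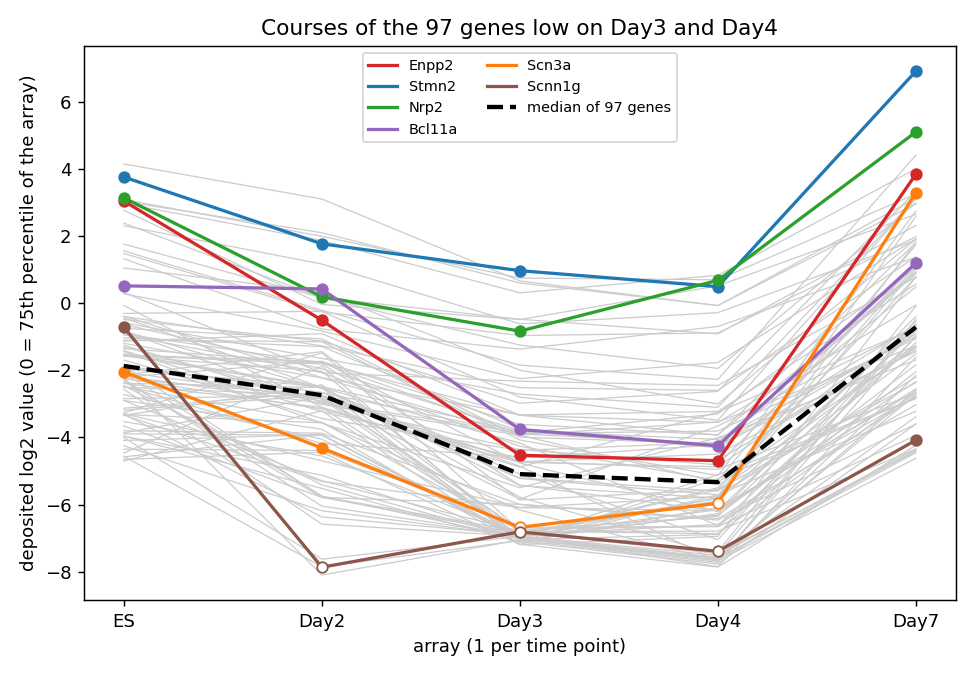
Deposited log2 values (0 is the 75th percentile of the array) of the 97 genes on the 5 arrays, 1 array per time point. Grey lines are single genes, the dashed line is their median, and coloured lines are 6 named genes, with open symbols where the probe was not well above background; the median was -5.09 on Day3 and -5.33 on Day4.

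The margin of largest size belonged to Enpp2, the secreted enzyme autotaxin that makes the signalling lipid lysophosphatidic acid. It read 3.04 on ES, -0.51 on Day2, -4.53 on Day3, -4.69 on Day4, then 3.84 on Day7, and its smaller fold was 189.8. Both intermediate arrays were well above background for this probe, though on Day3 close to the floor of that array, -4.85, and Day2 lay between ES and Day3. After normexp and quantile normalization its margin was 5.46 in place of 7.57. Serpini1, or neuroserpin, a protease inhibitor secreted by neurons, read 1.55 on ES, -0.21 on Day2, -1.85 on Day3, -2.27 on Day4, then 4.41 on Day7. It was lowest on Day4 and highest on Day7, and its smaller fold was 10.6. Vgf, the precursor of several neuropeptides, read 1.76 on ES, 0.16 on Day2, -0.48 on Day3, -0.91 on Day4, then 2.32 on Day7. These 3 are among 11 genes of secreted proteins or peptides.

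Of the other 8 secreted products, 6 were dim on both Day3 and Day4. Tac1 encodes the precursor of substance P and Cga the shared subunit of the glycoprotein hormones. Pth2 encodes a hypothalamic peptide, Tafa4 a small secreted protein, and Ache acetylcholinesterase, which breaks down acetylcholine at synapses. Wif1 and Sfrp4 encode secreted antagonists of Wnt, and Metrnl a secreted relative of meteorin. Ache read -3.33 on ES, -5.31 on Day2, -6.09 on Day3, -6.17 on Day4, then -0.54 on Day7, at least 2.86-fold. For Wif1 the values were -4.46 on ES, -1.87 on Day2, -7.11 on Day3, -7.76 on Day4, then -3.60 on Day7, so that Day2 was its highest array. Metrnl had -4.70 on ES, -3.21 on Day2, -7.18 on Day3, -7.86 on Day4, then -4.23 on Day7, and with the dim arrays at their floors its bound was only 1.11-fold.

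Channels and their regulators numbered 6, and 5 of them were dim on both Day3 and Day4. Kcnh8, a voltage-gated potassium channel, read -0.83 on ES, -2.54 on Day2, -5.09 on Day3, -7.04 on Day4, then -0.63 on Day7, at least 16.2-fold as deposited, with a margin of 2.33 after normexp and quantile normalization in place of 4.26. Scn3a, a voltage-gated sodium channel of the developing nervous system, read -2.05 on ES, -4.31 on Day2, -6.68 on Day3, -5.96 on Day4, then 3.29 on Day7, at least 6.96-fold. The Scn3a level on Day7 was above that on ES by 5.34 log2. Scnn1g, a subunit of the epithelial sodium channel, had another course, with -0.72 on ES, -7.86 on Day2, -6.81 on Day3, -7.39 on Day4, then -4.08 on Day7. It was highest on ES and dim on the 3 arrays after it, and with those arrays at their floors its bound was 1.70-fold. The remaining genes of the group were Kcnc2, a fast potassium channel of neurons, Kcnrg, a regulator of potassium channels, and Pirt, a regulator of the heat-gated channel of sensory neurons.

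Receptors and their partners numbered 8. Shisa6, an auxiliary protein of AMPA-type glutamate receptors, read -0.75 on ES, -1.06 on Day2, -3.99 on Day3, -4.19 on Day4, then 0.48 on Day7, 9.43-fold with all 5 arrays well above background. Nrp2, a co-receptor for semaphorins and vascular growth factors, read 3.13 on ES, 0.19 on Day2, -0.83 on Day3, 0.68 on Day4, then 5.10 on Day7. Its lowest array was Day3 and Day4 was already higher by more than 2-fold, which among the 39 genes measured on all arrays held also for Lifr. Lifr, the receptor subunit for leukaemia inhibitory factor, which keeps mouse ES cells undifferentiated, read 2.76 on ES, -0.04 on Day2, -0.49 on Day3, 0.51 on Day4, then 2.65 on Day7. Grik3, a kainate-type glutamate receptor, read -0.84 on ES, -2.96 on Day2, -3.86 on Day3, -3.30 on Day4, then 1.06 on Day7. Gabra2 is a subunit of the GABA-A receptor, Grm6 a glutamate receptor of the retina, Gpr85 an orphan receptor of brain, and Vmn1r37 a vomeronasal receptor. Vmn1r37 read -2.27 on ES, -6.04 on Day2, -6.92 on Day3, -6.15 on Day4, then -2.61 on Day7, at least 4.73-fold.

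Transporters and vesicle traffic gave 4 genes each. Slc5a7, the choline transporter of cholinergic neurons, read -3.29 on ES, -4.69 on Day2, -6.08 on Day3, -5.76 on Day4, then 2.59 on Day7, at least 2.94-fold. Slc17a6, which loads glutamate into synaptic vesicles, read -4.65 on ES, -4.44 on Day2, -7.19 on Day3, -6.94 on Day4, then 0.78 on Day7. The ES value of Slc17a6 was close to the floor of that array, -4.77, and its bound was 1.15-fold. Slc6a15, a neuronal carrier of neutral amino acids, read -0.64 on ES, -1.96 on Day2, -3.79 on Day3, -4.06 on Day4, then -0.99 on Day7, and Slc35d3, a carrier of the nucleotide sugar family, read -1.04 on ES, -1.29 on Day2, -3.74 on Day3, -4.31 on Day4, then -0.92 on Day7. Both had all 5 arrays well above background.

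Among the vesicle genes, Syt4 and Syt11 are synaptotagmins. Syt11 read 2.96 on ES, 1.86 on Day2, 0.31 on Day3, 0.83 on Day4, then 4.0 on Day7, 4.39-fold. Syt4 read -2.72 on ES, -4.05 on Day2, -7.0 on Day3, -5.79 on Day4, then 1.81 on Day7, at least 4.36-fold. Clvs2, a lipid-binding protein of clathrin-coated vesicles, read -1.96 on ES, -2.49 on Day2, -5.78 on Day3, -7.48 on Day4, then -0.66 on Day7, with Day2 still within 2-fold of ES. Dnajc6, or auxilin, strips clathrin from vesicles and was dim on both intermediate arrays.

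Microtubules and the cytoskeleton gave 4 genes. Stmn2, a microtubule regulator of growing axons and the single pan-neuronal marker among the 97 genes, read 3.75 on ES, 1.77 on Day2, 0.97 on Day3, 0.49 on Day4, then 6.91 on Day7. It was 6.91-fold higher on ES than on the higher of Day3 and Day4, and all 5 arrays were well above background. Ctnna2, the neuronal alpha-catenin, which ties cadherins to actin, read -2.22 on ES, -8.10 on Day2, -7.05 on Day3, -6.27 on Day4, then -0.40 on Day7, with the 3 middle arrays dim. Dclk1, a microtubule-binding kinase, and Jakmip1, a microtubule-binding protein of neurons, completed the group.

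Transcription factors and cofactors numbered 8. Bcl11a, a zinc finger repressor of brain and blood, read 0.51 on ES, 0.42 on Day2, -3.76 on Day3, -4.25 on Day4, then 1.20 on Day7, 19.4-fold. Its Day2 value stood within 2-fold of ES, and all 5 arrays were well above background. Rxrg, a retinoid X receptor and so a partner of the receptors for RA, read -0.31 on ES, -0.24 on Day2, -2.80 on Day3, -3.49 on Day4, then 3.11 on Day7. By this probe Day2 was near ES and Day7 higher than ES by 3.41 log2. A second probe of the same Rxrg transcript, well above background on all 5 arrays, read 3.01 on ES, 2.41 on Day2, 2.99 on Day3, 2.82 on Day4, then 3.20 on Day7, a margin of 0.02.

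The other 6 transcriptional regulators were dim on Day3, on Day4 or on both. Tbx20, a T-box factor of heart and hindbrain motor neurons, read -2.56 on ES, -6.58 on Day2, -6.94 on Day3, -5.50 on Day4, then 1.1 on Day7, at least 4.87-fold. Pou4f2, a POU factor of retinal ganglion cells, read -1.58 on ES, -2.03 on Day2, -6.98 on Day3, -7.56 on Day4, then -3.39 on Day7, so that Day7 was below ES. Zfpm2, a cofactor of GATA proteins, read -2.90 on ES, -5.29 on Day2, -6.79 on Day3, -6.86 on Day4, then -2.67 on Day7. Bcl11b is the close relative of Bcl11a, Nkx6-3 a homeodomain factor, and Ldb2 a cofactor of LIM-homeodomain proteins. Nkx6-3 read -1.56 on ES, -1.81 on Day2, -5.42 on Day3, -6.19 on Day4, then -2.33 on Day7, at least 5.71-fold.

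The RNA-binding proteins were Celf4 and Snrpn, both measured on all 5 arrays. Celf4, a regulator of neuronal mRNA, read 2.38 on ES, 0.16 on Day2, -1.25 on Day3, -1.94 on Day4, then 2.98 on Day7, 12.4-fold. A second, brighter Celf4 probe of the same transcript, well above background on all 5 arrays, read 3.31 on ES, 1.18 on Day2, 1.53 on Day3, 0.92 on Day4, then 3.15 on Day7, a margin of 1.62, which is below the rule's. Snrpn, an imprinted gene for a spliceosome protein expressed mainly in brain, read -0.39 on ES, -2.22 on Day2, -3.33 on Day3, -3.23 on Day4, then 0.57 on Day7. The 2 other Snrpn probes were brighter and well above background on all 5 arrays. Their margins were 1.09 and 0.94, also below the rule's. By the chosen probes the lowest array was Day4 for Celf4, while Day3 and Day4 of Snrpn differed by only 0.10. Both other Snrpn probes were lower on Day4, at 1.49 and 2.57, than on Day3, at 1.72 and 2.98.

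Signalling enzymes and G proteins gave 5 genes. Dusp4, a phosphatase that switches off MAP kinases, read 1.48 on ES, -0.26 on Day2, -0.96 on Day3, -0.89 on Day4, then 1.97 on Day7, 5.16-fold. Pde2a, a phosphodiesterase of cyclic nucleotides, read 3.03 on ES, 2.10 on Day2, 0.60 on Day3, -0.07 on Day4, then 3.12 on Day7. Gnas, which encodes the stimulatory G protein subunit and other transcripts of an imprinted locus, read -0.59 on ES, -1.65 on Day2, -2.71 on Day3, -3.10 on Day4, then 3.12 on Day7 with the probe chosen. Rit2, a Ras-like GTPase of neurons, had -2.32 on ES, -5.79 on Day2, -6.86 on Day3, -5.88 on Day4, then -0.63 on Day7, at least 5.76-fold. Dgki, a diacylglycerol kinase, lay just inside the rule.

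Adhesion and guidance gave 6 genes. Sema6a, a membrane-bound semaphorin, read 2.31 on ES, 1.16 on Day2, -0.62 on Day3, -0.28 on Day4, then 1.88 on Day7, 4.47-fold. Jam2, a junctional adhesion molecule, read 1.32 on ES, -0.77 on Day2, -1.37 on Day3, -0.70 on Day4, then 1.37 on Day7. Pcdh17, a protocadherin of synapses, read -0.07 on ES, -3.10 on Day2, -4.88 on Day3, -3.25 on Day4, then -0.74 on Day7. Ntng1, an axonal adhesion protein, was dim on all 3 middle arrays by the chosen probe. Another Ntng1 probe of the same transcript was dim on ES and Day3, but well above background on Day2 at -0.89 and Day4 at -4.55. By the chosen probes, Megf11, a cell-surface protein of retinal mosaics, and Magi2, a scaffold of junctions and synapses, were dim on Day3 and Day4. A second Megf11 probe was well above background on all 5 arrays, with -3.45 on Day3 and -3.33 on Day4.

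The 2 enzymes of eicosanoid synthesis differed at Day2. Ptgs2, or cyclooxygenase-2, which makes the prostaglandin precursor, read -1.86 on ES, -5.76 on Day2, -6.79 on Day3, -6.79 on Day4, then -4.35 on Day7. Tbxas1, thromboxane synthase, read -3.27 on ES, -1.48 on Day2, -6.76 on Day3, -6.35 on Day4, then -0.83 on Day7, which put Day2 above ES. The ubiquitin ligase family gave 4 genes, Trim36, Trim61, Trim67 and Marchf1. Trim67 read -1.11 on ES, -1.15 on Day2, -4.07 on Day3, -5.14 on Day4, then 2.74 on Day7, and Trim36 read -0.40 on ES, -1.27 on Day2, -2.52 on Day3, -2.60 on Day4, then 1.38 on Day7.

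For 33 genes no role was assigned to a group, and some of them had large margins. Frmd3, a protein of the membrane skeleton family, read -0.95 on ES, -2.07 on Day2, -4.26 on Day3, -5.28 on Day4, then 1.73 on Day7, 9.96-fold. Bmerb1 read 1.05 on ES, 0.33 on Day2, -2.0 on Day3, -3.0 on Day4, then 1.90 on Day7, 8.25-fold. Among the 39 genes measured on all arrays, Frmd3 and Bmerb1 were the 2 that were at least 2-fold lower on Day4 than on Day3, against Nrp2 and Lifr in the other direction and 35 within 2-fold. Pdzd4 read 4.14 on ES, 3.10 on Day2, 0.66 on Day3, -0.07 on Day4, then 2.96 on Day7, and so was highest on ES. Insyn2b, dim on Day3 and Day4, had -2.49 on ES, -3.55 on Day2, -6.77 on Day3, -7.40 on Day4, then -0.09 on Day7, at least 5.14-fold.

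Others of the 33 have varied known functions. Brinp1, a neural protein linked to control of the cell cycle, read -2.39 on ES, -3.10 on Day2, -6.91 on Day3, -5.56 on Day4, then 0.78 on Day7, at least 5.49-fold. Strip2, a protein of a phosphatase and kinase complex, read -2.13 on ES, -1.44 on Day2, -5.86 on Day3, -5.55 on Day4, then -2.36 on Day7, at least 5.60-fold and with Day2 its highest array. Lancl3 was dim on all 3 middle arrays, at least 2.92-fold, and Ldlrad4, a regulator of TGF-beta signalling, had Day2 as its highest array and a bound of 1.35-fold. Lor encodes loricrin, a protein of the cornified skin envelope, and read 0.32 on ES, -2.08 on Day2, -2.32 on Day3, -2.45 on Day4, then 0.77 on Day7. Adam19, a membrane-bound metalloprotease, read 3.09 on ES, 1.99 on Day2, 0.75 on Day3, 0.69 on Day4, then 3.25 on Day7. Nmnat3 makes NAD in mitochondria, Pdp1 is a phosphatase that activates pyruvate dehydrogenase, Insc orients the mitotic spindle, Corin and Tmprss5 are membrane-bound serine proteases, and Spag6l is a protein of cilia and flagella. The role groups were written after the 97 genes were known, and members named outside the naming rule were picked after their values were seen.

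The step just inside and outside the rule was small. Magi2 had a margin of 2.00, Dgki of 2.01, and Jam2, Tmprss5 and Tmem200a of 2.02. Just outside lay Tgm3 and Lratd1 at 1.98, Nexmif at 1.97, and Plaat1 and Tigit at 1.95. Dropping 1 array from the rule left 421 genes at least 4-fold higher on ES than on Day3 and Day4, of which the 97 genes were 23%. On the Day7 side there were 834, of which they were 11.6%. The opposite pattern, with both intermediate arrays at least 4-fold above ES and Day7, was met by 101 genes.

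The ends of the course were not used against each other by the rule. Day7 was higher than ES in 72 of the 97 genes, or 74.2%, against 38.3% of all genes, and lower in 25, with a median difference of 0.86 and a range from -3.36 to 5.88. Over all 13862 genes that median was -0.37. At least 2-fold higher on Day7 were 44 genes, or 45.4%, against 17.8% of all genes. At least 2-fold lower on Day7 were 8 genes, or 8.25%, against 30.8% of all genes. Both ends entered the rule, each against Day3 and Day4, so these shares are a description.

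The 8 genes at least 2-fold lower on Day7 than on ES were Pou4f2, Scnn1g, Ntng1, Ptgs2, Tafa4, Ldlrad4, Grm6 and Pdzd4. At least 8-fold higher on Day7 were 16 genes, or 16.5%, against 4.39% of all genes: Scn3a, Brinp1, Syt4, Trim67, Tbx20, Marchf1, Stmn2, Kcnc2, Rxrg, Slc5a7, Slc17a6, Dclk1, 1500009C09Rik, Fam183b, Gnas and Gpr85. Slc5a7 had the widest difference of these, 5.88. Other probes well above background on both ends existed for 8 of the 16, and in 3, Scn3a, Dclk1 and 1500009C09Rik, these were also at least 8-fold higher on Day7. In the other 5 Day7 minus ES by another probe was 2.39 and 1.91 for Tbx20, 1.8 for Gnas, 0.20 for Rxrg, -0.16 for Marchf1 and -1.09 for Trim67. With other scalings the count higher on Day7 was 73 after quantile normalization, 82 with no normalization and 75 after normexp and quantile normalization. The median Day7 minus ES over all genes was then -0.11, -0.01 and -0.09 in the same order, in place of -0.37. The share of 38.3% over all genes is for the deposited scale and does not apply to these counts.

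At Day2, after 8 h of RA, the genes fell into 4 classes. Within 2-fold of ES were 40 genes. At least 2-fold below ES and yet at least 2-fold above the higher of Day3 and Day4 were 24. Already down, at least 2-fold below ES and less than 2-fold above the later arrays, were 29. With dim values at their floors, the last 2 classes held 16 and 37 genes. The other 4, Tbxas1, Megf11, Wif1 and Metrnl, were at least 2-fold above ES, and all 4 were dim on both Day3 and Day4.

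In all, 53 of the 97 genes, or 54.6%, were at least 2-fold below ES at Day2, against 8.36% of the 13862 genes. The 4 above ES are 4.12%, against 8.23% of all genes. At Day2 68 genes, or 70.1%, were at least 2-fold above the higher of Day3 and Day4, against 7.84%. With dim values at their floors these were 54 genes, or 55.7%, against 7.6%. The 68 genes became 42 after quantile normalization and 21 after normexp and quantile normalization, with no share over all genes at hand for either. Since ES and Day3 and Day4 entered the rule, high ES and low later values were given, and these shares describe only where Day2 stood between them. The median Day2 minus ES was -1.06 over the 97 genes and -0.15 over all genes. The highest was 2.59 for Wif1, and the lowest with Day2 well above background was -3.55 for Enpp2. Scnn1g, dim on Day2, was at -5.06 with Day2 at its floor.

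**Figure D2:**
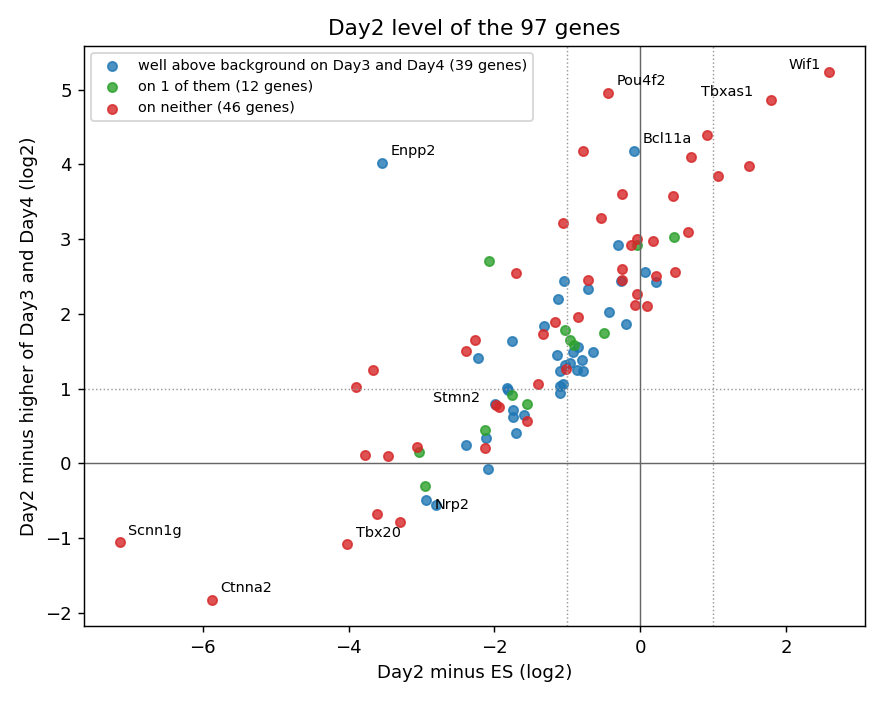
Day2 minus ES (horizontal, log2) against Day2 minus the higher of Day3 and Day4 (vertical, log2) for the 97 genes, 1 point per gene, coloured by whether the probe was well above background on Day3 and Day4 (39 genes), on 1 of them (12) or on neither (46). Dotted lines mark 2-fold; 53 points lie at or left of the left dotted line, and 68 at or above the horizontal one, values being as deposited, dim ones included.

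Named examples show the spread. Bcl11a stayed near ES, with a Day2 minus ES of -0.09, as did Rxrg at 0.06 and Shisa6 at -0.31. Enpp2 was between, with -3.55, and remained well above its Day3 level. Already down were Stmn2 at -1.99, Nrp2 at -2.95, Lifr at -2.80 and Nmnat3 at -1.82. Nrp2, Lifr and Jam2 were the 3 genes measured on all arrays whose Day2 value was under the higher of Day3 and Day4. Values dim on Day2 have no order among themselves, and these included Scnn1g, Ctnna2, Tbx20, Ptgs2 and Vmn1r37. In total 13 of the 97 genes were dim on Day2, 12 of them at least 2-fold below ES.

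The Day2 array differed from the others in brightness. Of all mouse probes, 86.6% were well above background on Day2, against 59.1% on ES, 57.5% on Day3, 65.7% on Day4, then 62.4% on Day7. Of 15468 probes dim on the other 4 arrays, 60.8% were well above background on Day2, and 58.2% were at least 2-fold above the higher of Day3 and Day4 there. Their Day2 median was -5.09 and their 95th percentile -2.12. On Day2 37 of the 97 genes exceeded that percentile: 30 of the 39 measured on all arrays, 2 of the 12 dim on 1 intermediate array and 5 of the 46 dim on both. The Day2 median over all 19897 gene symbols, -0.79, was itself above that percentile, so nothing is read from the 37. The part of this brightness in the Day2 counts was not tested.

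Among the 39 genes measured on all arrays, the median Day2 minus ES was -1.1, 24 were at least 2-fold below ES and 27 at least 2-fold above the later arrays. Among the 46 dim on both Day3 and Day4, the median was -0.82, and 22 and 34 met those limits. The 34 were set against dim values as deposited and would be fewer with those values at their floors. Among the 12 others, 7 met each. After quantile normalization, 69 of the 97 genes, or 71.1%, were at least 2-fold below ES at Day2, against 13.8% of all genes, and 2, or 2.06%, at least 2-fold above ES, against 5.28%.

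Other probes of the same gene give a second reading, although the probe of largest margin was chosen. Only probes that received a symbol, 26300 of 55681, could be counted here. Probes of these genes without a RefSeq transcript accession were not looked for. For 60 of the 97 genes 1 probe only had the symbol. The other 37 had 47 further probes, of which 30, in 25 genes, were well above background on ES and Day7. The remaining 17 were not and were left out, and 12 genes had only such probes. Several of these, among them probes of Ache, Bcl11b, Scn3a, Slc5a7 and Ntng1, were dim on ES and well above background on Day7. The Tafa4 probe was the reverse, and others were dim on both. Shares of the 30 therefore hold only for probes that met the detection part of the rule at both ends. Of the 30, 17 had a margin of 1 or more, or 56.7%, against 0.768% of 4165 other probes over all genes. With dim values at their floors 14 of the 30, or 46.7%, had 1 or more, against 0.696%. The 4165 include the 30, which gave 17 of its 32 probes with 1 or more, and no probe among them can exceed the largest margin of its own gene. These 2 shares are therefore low by construction, and nothing is read from the comparison. As deposited, a margin of 2 or more was seen in 7, of 1 to 2 in 10, of 0 to 1 in 7 and below 0 in 6, and the median was 1.1, or 0.89 with the floors. After normexp and quantile normalization the 17 probes with a margin of 1 or more became 5.

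**Figure D3:**
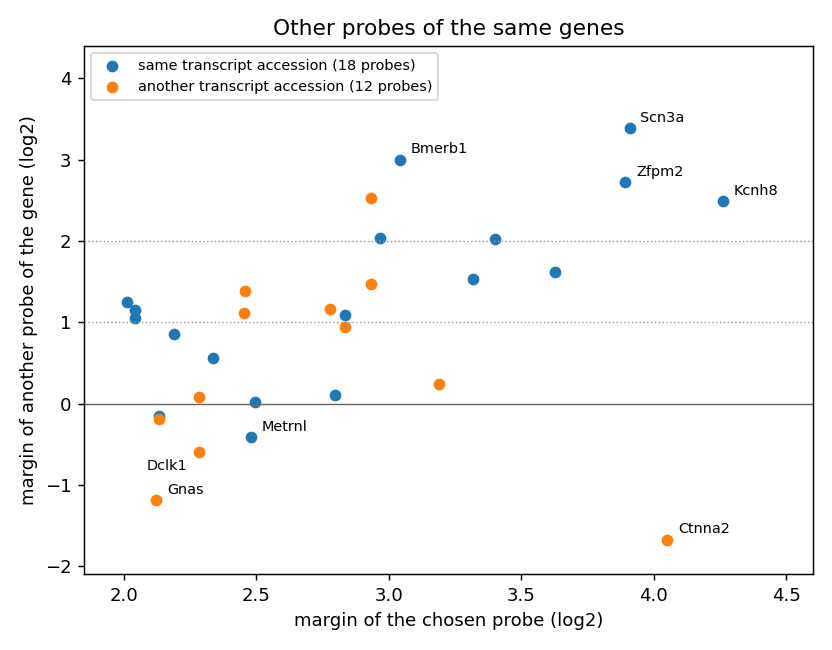
Margin of the chosen probe (horizontal, log2) against the margin of each of the 30 other probes well above background on ES and Day7 (vertical, log2), coloured by whether both probes were designed to the same transcript accession (18) or not (12). The solid line is 0 and the dotted lines are margins of 1 and 2; margins are as deposited, 17 points lie at or above 1 (14 with dim values at their floors), and Ctnna2 lies lowest at -1.68.

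By gene, 15 of the 25 had at least 1 other probe with a margin of 1 or more, 14 had no other kind, and 10 had none. With the floors 13 had at least 1. Another probe then still reached the rule's own margin for Scn3a at 3.08, Bmerb1 at 3.0, Zfpm2 at 2.72, Trim67 at 2.03 and Serpini1 at 2.02. Kcnh8 had 1.88 with the floors and 2.49 as deposited. The second Scn3a probe read -1.77 on ES, -3.70 on Day2, -6.52 on Day3, -5.16 on Day4, then 3.16 on Day7. Probes of the same transcript accession reached 1 or more in 12 of 18 cases and probes of another accession in 5 of 12, or 11 and 3 with the floors. How far the transcript measured accounts for these counts was not tested.

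The 2 other probes of Tbx20 had deposited margins of 2.53 and 1.47, but of 0.23 and 0.64 with the floors. They also differed at Day2. The second of them read -4.21 on ES, -0.56 on Day2, -6.80 on Day3, -5.68 on Day4, then -1.82 on Day7, so that Day2 was its highest array, whereas the other and the chosen probe were dim there.

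Some other probes had another course. The second Ctnna2 probe read -4.30 on ES, -3.60 on Day2, -2.62 on Day3, -2.75 on Day4, then 4.48 on Day7, lowest on ES and highest on Day7. The second Gnas probe read 5.06 on ES, 5.32 on Day2, 6.20 on Day3, 6.26 on Day4, then 6.86 on Day7, with Day3 and Day4 above ES. For Dclk1 the lower of 2 other probes had a margin of -0.60 and read -3.46 on ES, -2.48 on Day2, -2.87 on Day3, -3.26 on Day4, then 2.65 on Day7. The other probe of Metrnl had a margin of -0.41. Lifr had 2 further probes, at -0.19 and -0.16, and both fell below ES at Day2 but had Day7 under Day4. In each of these 5 genes, then, at least 1 other probe had an intermediate array above 1 of the ends. Other probes with margins between 0 and 1 were those of Rxrg at 0.02, Dclk1 at 0.08, Marchf1 at 0.10, Strip2 at 0.24, Plppr4 at 0.56, 1500009C09Rik at 0.85 and Snrpn at 0.94. The Marchf1 probe, of the same transcript as the one chosen and well above background on all 5 arrays, read 3.37 on ES, 2.31 on Day2, 2.64 on Day3, 3.10 on Day4, then 3.20 on Day7.

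Written lists of function, with 437 genes well above background on ES and Day7, held 7 of the 97 genes, or 1.6%, beside 0.7% of all 13862 genes. Of 21 such lists 16 held none, which at 0.7% and with 3 to 35 genes in a list is not read as a result: glycolysis and hypoxia, amino acid and ATF4 stress, metallothionein and oxidative stress, p53 targets, immediate early genes, interferon and antigen presentation, lysosome, cholesterol and lipid, matrix and cell adhesion, germ line and meiosis, the 2-cell stage and repeats, circadian genes, heat shock and unfolded protein, BMP with TGF-beta and Nodal, DNA replication and mitosis, and housekeeping. Their median margins lay between -1.98 for the interferon list and -0.19 for the circadian list, beside -0.66 over all 13862 genes. The synaptic list held 3 of its 25 genes well above background on both ends, Syt4, Slc17a6 and Syt11, or 12%, with a median margin of -0.36. The neuronal cytoskeleton list held Stmn2 alone among 19, with a median of -0.54. The list of LIF response and naive pluripotency held Lifr among 26, at -1.06, the imprinted list Snrpn among 24, at -1.05, and the list of FGF and ERK feedback Dusp4 among 18, at -0.08.

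Counted by family name, solute carriers gave 4 of 248 genes well above background on both ends, or 1.61%, and ion channels 4 of 91, or 4.4%, beside 0.7% of all genes. Zinc finger proteins, with 357 genes, gave Zfpm2, the Tmem series, with 179, gave Tmem200a, and the Gpr and Adgr series, with 39, gave Gpr85. Serpins gave Serpini1 of 25, and olfactory and vomeronasal receptors Vmn1r37 of 111. Predicted genes and clones gave 2 of 363. Keratins, claudins, tubulins, Rab GTPases, and collagens with laminins, families of 12 to 60 genes, gave none, from which nothing is read at that share, and no histone gene was matched by that list. The 97 genes lay on 19 chromosomes, at most 9 of them on 1 chromosome.

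Marker genes place the arrays. The 10 ES cell markers were well above background on all 5 arrays, with a summed linear level (1 is the 75th percentile of the array) of 459 on ES, 234 on Day2, 163 on Day3, 101 on Day4, then 35.5 on Day7, Dppa5a having the highest value throughout. A gene's level and detection are here those of its probe of highest mean value. Probes differ in brightness, so a sum is read between arrays only and the gene named as leading it is no ranking of abundance. Neural progenitor markers summed to 15.0, 8.0, 16.6, 43.8 and 196 on ES, Day2, Day3, Day4 and Day7, with 9, 10, 10, 10 and 9 of 10 well above background. On the first 4 arrays Nes had the highest value of them and on Day7 Fabp7, at 7.11 after -1.89 on Day4. Dbx1 was dim on ES and Day7. The genes of this list did not move together from Day4 to Day7. Olig2 fell from 1.83 to -2.40 and Pax6 from 0.64 to -4.84, and Hes5 and Dbx1 also fell. Nes, Sox1, Nkx6-1, Nkx2-2, Fabp7 and Irx3 rose. Of the 10, Nkx2-2 was higher on ES and Day7 than on both Day3 and Day4, by 0.53. The 9 motor neuron markers measured summed to 4.10, 7.21, 6.64, 4.49 and 96.4, led by Prph and on Day7 by Slc18a3. On ES 7 of these 9 were well above background, Chat and Lhx4 being dim, then 9, 6, 8 and 9 on the later arrays, with Slc5a7, the 1 of them with the pattern, dim on Day3 and Day4.

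Pan-neuronal markers were themselves lower between the ends in sum. On ES 9 of 10 were well above background, Dcx being dim, and on the other arrays all 10 were. Their summed level was 49.5 on ES, 27.0 on Day2, 21.5 on Day3, 31.3 on Day4, then 620 on Day7, led by Snap25 on the first 4 arrays and by Nefl on Day7. Stmn2, Nefl and Snap25 were higher on ES and Day7 than on both Day3 and Day4, with margins of 2.79, 1.88 and 0.25, and the other 7 were not. The part of these neuronal transcripts' source cells in the values of the 97 genes was not tested.

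Markers of other cells did not share 1 course. Glial markers summed to 14.0 on ES, 5.93 on Day2, 5.87 on Day3, 7.68 on Day4, then 10.2 on Day7, so that the sum was lower between the ends. Of the 10 genes, 3 were themselves higher on both ends than on Day3 and Day4, Aqp4 and Slc1a3 by 0.39 and Aldh1l1 by 0.38, and the sum was led by another gene at each end. Well above background were 8 of 10 on ES, 10 on Day2, 9 on Day3 and Day4, then 8 on Day7. Olig1 had the highest value on ES, with 2.91 there and -1.93 on Day7, and Mbp on the later arrays, with Gfap and S100b dim on ES and Day7 and S100b dim also on Day3 and Day4. Fibroblast markers summed to 5.61, 4.52, 7.13, 10.1 and 14.4 in the same order, with Postn, Lum and Lox dim on all arrays but Day7, and 8, 9, 8, 9 and 12 of 12 well above background. They were led by Thy1, Fbln1, Col1a2, Col1a2 and Dcn, and Dcn, well above background on all 5 arrays, was higher on both ends than on Day3 and Day4 by 1.53. Markers of endothelium and blood summed to 20.02, 12.7, 21.1, 22.7 and 16.8, led throughout by Kdr, with 8, 11, 9, 9 and 7 of 11 well above background and Tie1 dim on ES, Day3 and Day7. Of these 11, Kdr and Tal1 were higher on both ends, by 0.23 and 0.38. The part of these cells in the result was not tested.

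Endoderm markers summed to 1.92, 4.50, 4.0, 4.93 and 10.2 on the 5 arrays in order of time, led by Amn, Hnf4a, Foxa1, Gata6 and Foxa1, with 8, 10, 9, 10 and 7 of 12 well above background and Afp and Apoa1 dim on all 5. The rise of the sum on Day7 went with Foxa1, which read -0.29 on Day4 and 3.15 on Day7. The median of the 12 genes was -1.80 on Day4 and -4.08 on Day7, its lowest of the 5 arrays. Muscle and heart markers summed to 5.41, 4.83, 5.62, 6.22 and 1.12, led by Myh6 on ES and Day2 and by Actc1 later, with 6, 9, 7, 8 and 7 of 10 well above background and Myog dim on all 5 arrays. Surface epithelium markers summed to 110.0, 70.4, 101.0, 143 and 29.7, led by Krt18, and all 12 were well above background on every array. None of these 3 sums, and no gene of these lists well above background on both ends, was higher on both ES and Day7 than on both Day3 and Day4. Counting a gene where any of its probes was well above background adds Gfap and Sox17 on Day7 and changes no other count of markers.

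The background of the arrays moved with the pattern in 1 respect. The median raw signal of 308 negative control spots was 61 on ES and 70 on Day7, and 37 on Day2, 35.5 on Day3 and 31.5 on Day4. In the deposited values 6045 probes dim on all 5 arrays had medians of -6.83 on ES, -7.15 on Day2, -6.98 on Day3, -7.54 on Day4, then -7.45 on Day7. These probes were taken for being dim throughout, unlike the 97 genes, and the part of the background in the result was not tested. The standard deviation between spots of the 399 probes printed 10 times was between 0.07 and 0.11 log2 on the 5 arrays.

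Margins were smaller in another processing of the raw signal, in which the median signal of each spot was corrected by normexp with an offset of 50 and then quantile normalized; the part of each step was not tested. After it 15 of the 97 genes kept a margin of 2 or more, 63 kept 1 or more, and all 97 kept a margin above 0, the lowest being 0.21. The 15 were Enpp2, Bcl11a, Kcnh8, Celf4, Serpini1, Frmd3, Shisa6, Bmerb1, Snrpn, Stmn2, Nrp2, Pde2a, Dusp4, Pdzd4 and Sema6a. Of these, 14 were well above background on Day3 and Day4. After quantile normalization 79 of the 97 genes kept a margin of 2 or more, and the lowest was 1.68. With no normalization the rule would take 250 genes. Over all genes Day3 and Day4 then had medians of -0.67 and -1.15 against ES, and their part in that count was not tested.

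Promoter sequences of 300 bases, 250 before and 50 after the start, were at hand from RefSeq GRCm38.p6 for 73 of the 97 genes, 101 promoters in all, and were set beside all 32851 promoters. These 73 are 75.3% of the genes, under the 80% held to be needed for a check over the set, so a comparison of the set's promoters with others is void and the shares are given for the sequences at hand only. CpG dinucleotides per 100 bases had a median of 3 in the promoters of the 97 genes, 2.33 in all promoters and 6.33 in those of the genes well above background on ES and Day7. The GC box GGGCGG was in 39.6% of the 101 promoters, in 35.7% of all and in 59.6% of those of measured genes. The CCAAT box CCAAT was in 39.6%, in 37.4% of all and in 37.7% of those of measured genes. The right part of RE1, GGACAGC, was in 11.9%, 6.56% and 7.59% in the same order, and the left part, TTCAGCACC, in 0.99%, 0.371% and 0.39%. Both parts were added after the 97 genes were seen.

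The other 8 motifs were counted in the same way. The E-box CACGTG was in 6.93% of the 101 promoters, in 7.15% of all and in 9.63% of those of measured genes. In that order, the hypoxia response core GACGTG was in 7.92%, 6.38% and 8.85%, and the cyclic AMP response element TGACGTCA in 0.99%, 1.79% and 2.87%. The AP-1 site TGACTCA was in 4.95%, 5.2% and 3.86%, the metal response core TGCGCAC in 4.95%, 3.73% and 6.37%, and the TATA box TATAAA in 9.90%, 13.6% and 8.03%. The STAT motif TTCNNNGAA was in 6.93%, 8.30% and 6.93%, and TGCATCA, a composite of ATF4 and CEBP, in 0, 3.15% and 2.17%. All 12 motifs were searched on both strands, matches of different motifs did not overlap in the 101 promoters, and a match is a description of the letters only.

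The 250 bases before the start are shown for 2 genes measured on all 5 arrays, as examples picked after their values were seen, because each holds 2 of the motifs named. Frmd3 is at chr4:74013353-74013602 and Serpini1 at chr3:75557243-75557492, both on the plus strand of GRCm38.p6 (RefSeq), and both stretches lie upstream of the annotated start. Capitals mark CCAAT and GGGCGG in the first and CCAAT and GGACAGC in the second, read on either strand.
Frmd3: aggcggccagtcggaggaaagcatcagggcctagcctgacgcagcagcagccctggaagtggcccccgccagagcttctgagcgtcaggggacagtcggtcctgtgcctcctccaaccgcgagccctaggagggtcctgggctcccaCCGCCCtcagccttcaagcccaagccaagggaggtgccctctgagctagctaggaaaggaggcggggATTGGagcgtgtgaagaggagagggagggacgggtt
Serpini1: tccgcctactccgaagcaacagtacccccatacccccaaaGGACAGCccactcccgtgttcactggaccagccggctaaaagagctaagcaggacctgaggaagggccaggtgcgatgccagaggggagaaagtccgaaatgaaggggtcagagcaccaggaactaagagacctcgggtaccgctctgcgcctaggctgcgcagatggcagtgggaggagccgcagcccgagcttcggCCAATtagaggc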

How the data were processed

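Total RNA of 5 samples, 1 per time point, was hybridised to Agilent 1-colour mouse arrays, and groups follow the submitters' labels. The authors extracted spot intensity with Agilent Feature Extraction 10.5.1, as the submitters' processing notes state. The deposited log2 table was found to hold log2 of the processed signal minus the 75th percentile of the array: at least 99.99% of values on each array lay within 0.01 of that, and column medians were -3.55 on ES, -2.62 on Day2, -3.71 on Day3, -3.53 on Day4, then -3.66 on Day7. It was the main scale. Detection came from the well-above-background flag of the deposited scanner intensity files, which had to be set on every spot of a probe.

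The array had 55681 mouse probes, of which 26300 received a symbol, each through a RefSeq GRCm38.p6 transcript accession. Probes without such an accession, or with one matching several symbols, received none. Gene names in the scanner files were not used, so the 56 probes that met the rule without a symbol were not searched for named genes. The array's design follows mm9, so RefSeq was used for names and promoter sequences only. Of 30097 probes well above background on ES and Day7, 160 met the rule and 104 of these had a symbol; the probe of largest margin was kept per gene. The limit of 300 genes was not reached. Spots of 1 probe were averaged.

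The naming rule took the 20 largest margins, members of a written list, the 5 highest and 5 lowest Day2 values relative to ES (both as deposited, dim values included), the 5 genes just inside and just outside, and up to 5 genes with discordant probes, 43 members in all. The lists were 21 of function, 10 of cell markers and 14 families; 12 role groups were written after the 97 genes were seen. The members and the lists were chosen with earlier results of these data known.

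Alternatives were quantile normalization, no normalization, normexp (offset 50) followed by quantile, rescaled scanner values, other detection rules, other choices of probe and other margins. Normexp, planned for the raw signal of each spot, used its median over pixels rather than its mean. The rule was tested on simulated data. The number of arrays limits precision, and no test or p-value was computed. Work was done in R 4.3.3 with limma 3.58.1 and in Python 3.11.15 with pandas 2.3.3, numpy 2.4.6 and matplotlib 3.10.9.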

Additional observations from a re-analysis of the deposited data

How the results depend on the processing

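No paired analysis was possible because there is 1 array per time point, and leaving out a replicate was not possible for the same reason. Of 76 values of the main results under other settings, 55 stayed within 1.5 times the reported value (or, for the median, within 0.58 log2) and 21 did not. The median, the only one of them with a sign, stayed below 0 in all 11 of its values.

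The count of 97 genes became 250 with no normalization, 15 after normexp, 325 at a margin of 1 and 24 at a margin of 3. It became 172 without Day3 in the rule, 166 without Day4, 421 without Day7 and 834 without ES, alternatives added after seeing the data; fewer conditions let more genes through. Of the 80 genes that quantile normalization takes, 79 are among the 97, as are all 15 of normexp, all 82 with the brightest probe and all 70 with the mean of all probes.

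Of the 43 named genes, 10 kept a margin of 2 after normexp and 22 reached 3. The median Day2 minus ES of -1.06 was -1.76 after quantile normalization. The 68 genes at least 2-fold above the later arrays at Day2 were 42 after quantile normalization, 21 after normexp and 38 at 4-fold. The 53 genes at least 2-fold below ES were 35 of the 70 genes taken with the mean of all probes, and 24 of the 97 at 4-fold. The 66 genes with a margin of 2 over the floors were 15 after normexp and 8 at a margin of 3. With the laxer detection flag, which takes 101 genes, all 101 had a margin of 2 over the floors. That flag also set which values were dim and where the floors lay, so the 101 are no check on the 66. The 17 other probes were 5 after normexp and 7 at 4-fold, and 14 with dim values at their floors, an alternative added after seeing the data, as was the same for the 68 genes above, which gave 54. Apart from changed thresholds, dropped arrays and sets of another size, the cause was not tested. Choosing the brightest probe, or the mean, leaves no other probes to count.

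For the 20 genes of largest margin, 78 of 160 values came from the detection rules, the rescaled scanner values or, for genes with 1 probe, the choice of probe, and changed by less than 0.01. Of the other 82, 38 moved by less than 0.58, 33 moved down and 10 up. The margin of Ctnna2 changed sign, to -1.68 with the brightest probe, which is another probe.

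Signal over background limits many genes: 58 of the 97 were dim on Day3 or Day4, 48 of the 97 margins change when dim values are set at their floors, and 18 have a bound under 2-fold. Day2 was brighter for faint probes than the other arrays. For Day7, an effect of its slide cannot be told apart from one of time.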
